A study of Nothobranchius furzeri with 30 samples.

Results

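The proteins of the mitochondrial ribosome were followed through ageing of the killifish retina as the mRNA of 63 loci, out of 24989 loci counted. A locus was a member when its first gene name in the study's annotation began with MRPL or MRPS and a number, a rule that uses the name alone. The 63 loci carried 62 names, because MRPS35 named 2 loci. By the role of the named protein, 37 loci belonged to the large subunit, 25 to the small subunit, and 1 locus, MRPS36, names a protein that is now known as a subunit of the α-ketoglutarate dehydrogenase complex. MRPS30 and MRPS18A are counted with the large subunit, where both proteins sit despite their names. Of the members, 61 passed the filter on low counts and were tested beside all 13975 loci that passed.

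Retinal RNA of the African turquoise killifish, a short-lived fish used to study ageing, was measured with QuantSeq, which sequences the 3′ ends of polyadenylated transcripts. All fish were untreated wild-type females of the inbred GRZ-AD strain, and they formed groups of 10 fish at 6 weeks (young adults), 10 at 12 weeks (middle-aged) and 10 at 18 weeks (old). Both neural retinas of a fish made 1 sample, after removal of the retinal pigmented epithelium (RPE), the pigment cell layer behind the photoreceptors. Ages were compared to learn which transcripts shift as the retina grows old.

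The mitochondrial ribosome translates the few proteins that the mitochondrial genome encodes, all of them membrane parts of the respiratory chain and of ATP synthase. Its RNA comes from mitochondrial DNA, while its proteins are encoded in the nucleus, translated in the cytosol and imported. Many of them have counterparts in bacterial ribosomes, and others are found in mitochondria alone. The retina is known for a high demand for ATP, above all in the photoreceptors, whose inner segments are packed with mitochondria.

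Each fish contributed 3552371 to 5840792 reads assigned to loci. A level is given in CPM, counts scaled to a common library size, after TMM scaling, which corrects that size for differences in composition. Reads of this method come from 3′ ends and do not grow with transcript length, so levels are not divided by it. Composition moved with age, since a pair of loci that carry no gene name took 43.0% ± 3.22, 38.5% ± 3.60 and 30.8% ± 5.58 of the counts (SD, n = 10 each) at 6, 12 and 18 weeks. RPE transcripts moved with age too. The paper reports that RPE clung more to young retinas and was harder to remove there. It therefore treats lower RPE transcripts in old fish as a possible artefact of dissection, which was not tested here. The 16 RPE marker loci summed to 664 ± 185 CPM at 18 weeks and 1429 ± 296 CPM at 6 weeks, and 10 of 12 tested RPE loci were lower at 18 weeks. Of all tested loci 29.2% changed at 18 against 6 weeks. Of 5 tested cone loci 4 were lower at 18 weeks, and of 8 tested bipolar cell loci 1 was higher and 3 lower. Of 10 tested rod loci 3 were higher and 0 lower, and of 8 amacrine cell loci 2 were higher and 0 lower. Of 8 ganglion cell loci 1 was lower and 0 higher, and of 3 horizontal cell loci 1 was higher and 1 lower. Markers of Müller glia, the support cells of the retina, summed to 1283 ± 56.4 CPM at 18 weeks and 944 ± 60.1 CPM at 6 weeks, with 3 of 5 tested loci higher and 1 lower, and of 9 tested loci of microglia and other immune cells 5 were higher. The part of these cell types in the members' levels was not tested, apart from a fit with an RPE score. Red blood cell markers (2 loci) summed to at most 3.30 CPM in any fish. In bulk RNA, fewer cells of a type and less RNA per cell cannot be told apart.

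One library stood apart. In 18-week fish 1, the median absolute deviation of the tested members from their group mean was 0.58 on the log2 scale, and 0.52 over all tested loci, whereas in the other 29 fish the members deviated by 0.08 to 0.21. This fish had the highest level of its group for 31 of the 61 members and the lowest for 13. It also had the smallest share of reads on no feature (18.0%) and the largest share of ambiguous reads (1.85%) of all fish, and its cytosolic ribosomal protein loci summed to 78493 CPM, against 43403 to 54495 CPM in the other 18-week-old fish. The pair of loci without a gene name took 18.3% of its counts, against 27.8% to 38.7% in the other 18-week-old fish. Its nuclear oxidative phosphorylation loci summed to 11833 CPM, against 8221 to 9274 CPM in those fish. Results that rest on 18-week fish 1 are given with and without it, and whether age or the library sets it apart was not tested.

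As a group, the mitoribosomal transcripts stayed near one summed level with TMM scaling. The sum over all 63 loci was 1702 ± 136, 1642 ± 121 and 1676 ± 109 CPM (SD, n = 10 each) in fish aged 6, 12 and 18 weeks. The log2 ratio of the summed level was -0.02 at 18 against 6 weeks, -0.05 at 12 against 6 weeks and 0.03 at 18 against 12 weeks. Each was smaller than the SD of the log2 sum between fish of an age (0.10 to 0.11). That SD is the spread of single fish and not the error of a difference between means, and these ratios were not tested. With library size alone, without correction for composition, the ratio at 18 against 6 weeks was 0.28, but this scaling also set the median log2FC of all tested loci at 0.32 and that of the members at 0.31. With TMM scaling but without 18-week fish 1, the sum at 18 weeks was 1649 ± 71.8 CPM (n = 9). 

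Split by subunit, the sums of the ages again overlapped. The 37 large-subunit loci summed to 1085 ± 56.7 CPM at 18 weeks and 1119 ± 80.5 CPM at 6 weeks, and the 25 small-subunit loci to 568 ± 61.1 CPM at 18 weeks and 564 ± 55.3 CPM at 6 weeks. The ratio of the large to the small sum was 1.92 ± 0.158 at 18 weeks, with fish between 1.61 and 2.20, and 1.99 ± 0.0879 at 6 weeks, with fish between 1.85 and 2.14. The lowest ratio, 1.61, belonged to 18-week fish 1, and without it the ratio at 18 weeks averaged 1.96 ± 0.120 (n = 9). The ranges of 6 and 18 weeks overlapped for both sums and for the ratio.

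**Figure D1:**
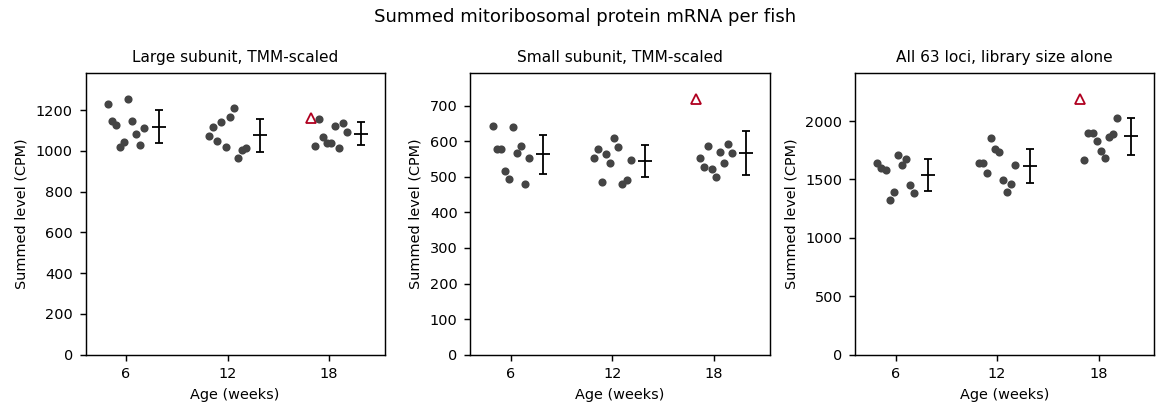
Summed level of mitoribosomal protein loci in CPM (vertical axis, from 0) by age in weeks (horizontal axis), for the large and the small subunit with TMM scaling and for all 63 loci with library size alone; points are fish, bars are the mean and SD of 10 fish, and the open triangle is 18-week fish 1. The TMM-scaled sums of the ages overlap, while the library-size sums average 1538, 1616 and 1870 CPM at 6, 12 and 18 weeks.

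The most abundant members by 3′ counts were MRPL24 and MRPL28, both large-subunit proteins with bacterial counterparts. MRPL24 averaged 126 ± 15.1 CPM over the 30 fish, which was 7.52% of the members' sum, but its locus carries hdgf, the name of a growth factor gene, as a second name, so that its counts may hold transcripts of both. MRPL28 averaged 111 ± 18.7 CPM, or 6.66% of the sum. MRPL23, a protein at the exit of the peptide tunnel, was next at 50.6 ± 9.99 CPM, although in 18-week fish 1 it had 80.2 CPM and MRPL28 had 32.8 CPM. In the small subunit the highest levels were those of MRPS15 at 43.1 ± 8.47 CPM, of MRPS12, the counterpart of a bacterial protein of the decoding centre, at 43.0 ± 6.68 CPM, and of the mitochondria-specific MRPS23 at 42.0 ± 4.39 CPM. These 3 loci differed by less than the spread between fish.

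None of these 6 abundant members changed between ages at an FDR under 0.05 when all fish were fitted with TMM scaling. In that fit 29.2% of all tested loci changed at 18 against 6 weeks. With library size alone MRPL24, MRPS12 and MRPS23 were higher at 18 against 6 weeks, and MRPS12 also at 18 against 12 weeks. That scaling changed 50.6% of all tested loci at 18 against 6 weeks and 23.9% at 18 against 12 weeks. MRPL24 had 92.2, 132 and 152 CPM in the lowest, median and highest fish at 18 weeks, against 92.9, 125 and 156 CPM at 6 weeks. MRPL28 had 32.8, 113 and 133 CPM at 18 weeks, against 86.0, 118 and 131 CPM at 6 weeks. The lowest value of both loci at 18 weeks was that of fish 1, and in the other 9 fish MRPL28 lay between 85.2 and 133 CPM.

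At the other end, 2 loci were too low to be tested. MRPS18B, one of 3 related S18 proteins of the mitoribosome, had 1 to 15 counts per fish at 18 weeks and 2 to 7 at 6 weeks. The second MRPS35 locus, XLOC_004261, had 0 counts in 27 of 30 fish and at most 3 in the others, while the first, XLOC_019066, averaged 7.00 ± 1.91 CPM. Reads that fit both MRPS35 loci cannot be assigned with certainty, so the level of MRPS35 is uncertain. In RefSeq's annotation of the assembly NfurGRZ-RIMD1, which is not the assembly the reads were counted on, 62 members matched by name, and 7 overlapped a neighbouring gene, MRPS18B, MRPS18A, MRPL11, MRPL3, MRPL12, MRPL27 and MRPL45. Whether the counting used strand is not given in the sources used here, so reads of these genes and of their neighbours may not be told apart. Among tested members the lowest mean was that of MRPS17, at 4.40 ± 1.38 CPM.

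Between 6 and 18 weeks, 9 of 61 members changed at an FDR under 0.05 in edgeR's quasi-likelihood test, 4 of them higher and 5 lower at 18 weeks. The changes were modest, with log2FC between -0.65 and 0.52, and 0 members passed the study's additional limit of an absolute log2FC of at least 1. Of all tested loci 29.2% changed, 14% higher and 15.2% lower, and 3.34% passed both limits. The members' share of 14.8% was thus below that background with TMM scaling. With library size alone 52.5% of the members changed, against 50.6% of all tested loci. The median log2FC was 0.02 for the members and 0.02 for all tested loci, and the SD of log2FC between loci was 0.22 for the members and 0.44 for all. DESeq2 gave 4 members higher and 6 lower, adding MRPL15, and 14 members had an unadjusted p under 0.05 in edgeR.

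Without 18-week fish 1, edgeR's quasi-likelihood test placed 3 members higher and 11 lower at 18 weeks, 23% of those tested. Of all loci tested without that fish 30.4% changed, 14% higher and 16.4% lower. MRPL34, MRPL39, MRPL1, MRPL37, MRPL40, MRPL48 and MRPS7 were called in both fits, MRPS30 and MRPS36 were called with all fish but not without it, and MRPS18A, MRPL11, MRPL13, MRPL15, MRPL17, MRPS15 and MRPS31 were called without it but not with all fish. The members' median log2FC was then -0.02.

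**Figure D2:**
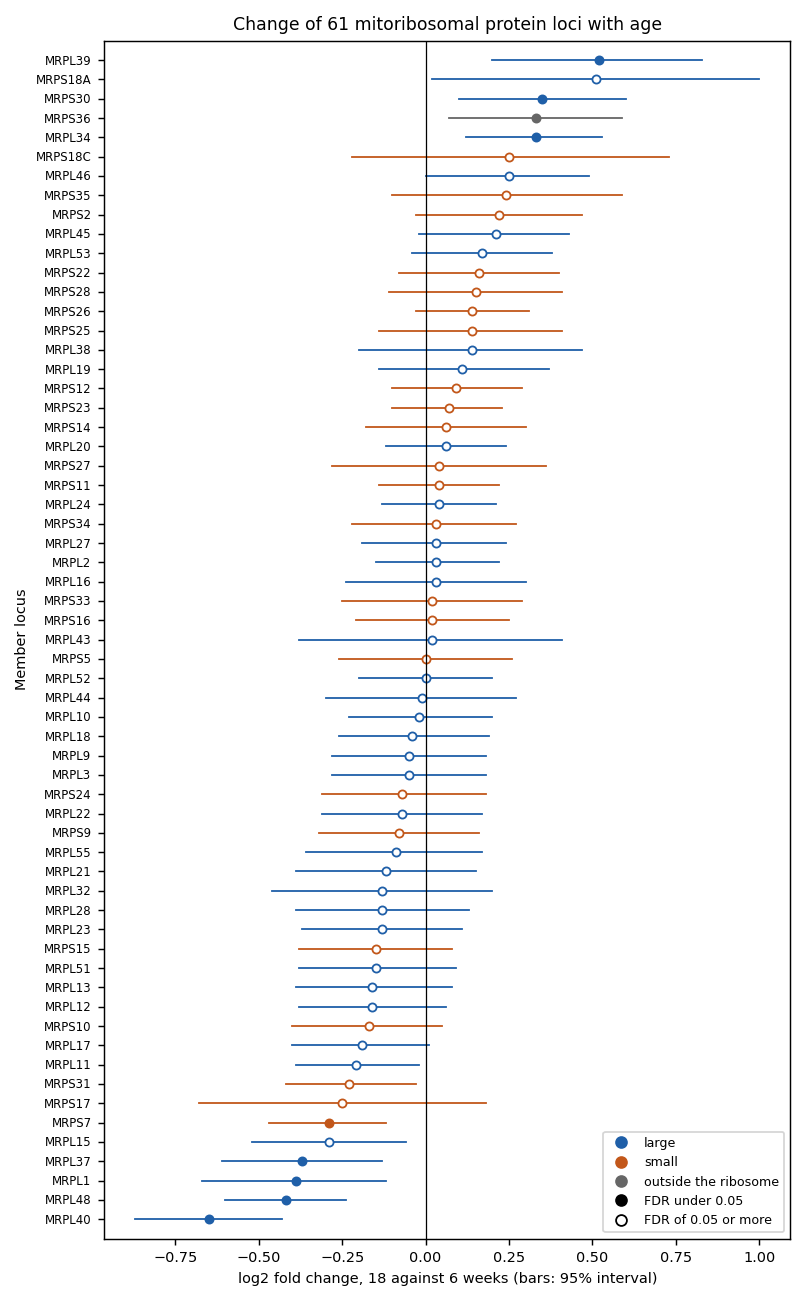
The log2FC at 18 against 6 weeks (horizontal axis) of each of the 61 tested members (vertical axis, ordered by log2FC), with bars for its 95% interval, colours for the subunit and filled points for an FDR under 0.05. Most members lie within 0.25 of zero (47 of 61), and the 9 filled points sit at both ends, with MRPS7 at -0.29 with TMM scaling and 0.01 with library size alone.

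Of the 5 members that fell, 4 belonged to the large subunit. MRPL40, a large-subunit protein without a bacterial counterpart, had 12.8, 17.6 and 21.6 CPM in the lowest, median and highest fish at 18 weeks, against 19.7, 27.1 and 35.8 CPM at 6 weeks. Of the old fish, 8 of 10 lay below every young fish. The transcript fell by 36.2% (log2FC = -0.65, SE 0.11, FDR = 2.67e-05). At 12 weeks its median of 22.5 CPM lay between, while its range of 17.7 to 26.8 CPM overlapped those of both other ages. MRPL40 was called lower under each alternative tried at 18 against 6 weeks, library size alone included (log2FC = -0.36, FDR = 0.0068).

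MRPL48, another large-subunit protein known from mitochondria and not from bacteria, had 24.9, 32 and 37.0 CPM at 18 weeks, against 38.3, 42.2 and 48.0 CPM at 6 weeks. All 10 old fish lay below all 10 young fish, and MRPL48 was the 1 member without overlap between these ages. Among all tested loci, 1.33% were lower and 1.01% higher without overlap. It fell by 25.3% (log2FC = -0.42, SE 0.0875, FDR = 0.000376), although with library size alone the log2FC was -0.12 (FDR = 0.245).

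MRPL1 is the counterpart of the bacterial protein of the L1 stalk, the mobile arm where spent tRNA leaves the ribosome. It had 10.2, 15.2 and 27.5 CPM at 18 weeks, against 14.4, 20.9 and 26.0 CPM at 6 weeks. The groups overlapped, and the highest of all these values was that of 18-week fish 1, at 27.5 CPM, with the other 9 old fish between 10.2 and 18.0 CPM. The log2FC was -0.39 (SE 0.137, FDR = 0.027) with all fish and -0.52 (SE 0.121, FDR = 0.00102) without that fish. Its FDR was 0.0567, 0.0574 and 0.0563 without 6-week fish 2, 18-week fish 4 and 18-week fish 9.

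MRPL37, a mitochondria-specific large-subunit protein, had 10.0, 17.5 and 21.4 CPM at 18 weeks, against 14.9, 21.8 and 30.7 CPM at 6 weeks. All 10 old fish lay below the median of the young fish, and the lowest value was that of 18-week fish 1. The log2FC was -0.37 (SE 0.118, FDR = 0.0164) with all fish and -0.31 (SE 0.106, FDR = 0.0248) without that fish. Library size alone left neither MRPL37 nor MRPL1 past the test, with log2FC of -0.07 (FDR = 0.659) and -0.09 (FDR = 0.619).

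In the small subunit, 1 of 23 tested members fell with all fish. MRPS7, the counterpart of a bacterial protein that organises the head of the small subunit, had 24.3, 29.2 and 35.4 CPM at 18 weeks, against 32, 34 and 47.4 CPM at 6 weeks. Of the old fish, 9 of 10 lay below every young fish. The log2FC was -0.29 (SE 0.0874, FDR = 0.0101) with TMM scaling, and 0.01 (FDR = 0.948) with library size alone, where the median of all loci was 0.32.

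The members that were higher at 18 weeks were led by MRPL39, a large-subunit protein found in mitochondria alone. It had 16.7, 21.7 and 46.4 CPM at 18 weeks, against 9.94, 16.9 and 22.9 CPM at 6 weeks. In 9 of 10 old fish it lay above the median of the young fish, with 3 of them above every young fish, and 18-week fish 1 was highest by a wide margin. The log2FC was 0.52 (SE 0.155, FDR = 0.0111) with all fish and 0.35 (SE 0.128, FDR = 0.0332) without that fish.

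MRPL34, a short protein with a bacterial counterpart that lies against the rRNA of the large subunit, had 23.5, 28.8 and 37.0 CPM at 18 weeks, against 18.7, 23.1 and 31.7 CPM at 6 weeks. All 10 old fish lay above the median of the young fish, though the ranges overlapped. The log2FC was 0.33 (SE 0.100, FDR = 0.0129), and it was 0.28 (FDR = 0.0238) without 18-week fish 1.

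MRPS30, which sits in the large subunit, had 14.4, 21.4 and 32.1 CPM at 18 weeks, against 12.5, 16.7 and 23.5 CPM at 6 weeks, with a log2FC of 0.35 (SE 0.124, FDR = 0.029). MRPS36, the dehydrogenase subunit, had 15.3, 23.6 and 35.8 CPM at 18 weeks, against 15.5, 17.3 and 25.1 CPM at 6 weeks, with a log2FC of 0.33 (SE 0.127, FDR = 0.0453). These 2 calls were lost in some of the fits that left out a fish. Without 18-week fish 1, the highest for both, their FDR was 0.0652 for MRPS30 and 0.111 for MRPS36. When each fish was left out in turn, MRPS30 passed in 24 of 30 fits and was lost without fish 2, 9 or 10 at 6 weeks or fish 1, 3 or 4 at 18 weeks, and MRPS36 passed in 17 of 30 fits.

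**Figure D3:**
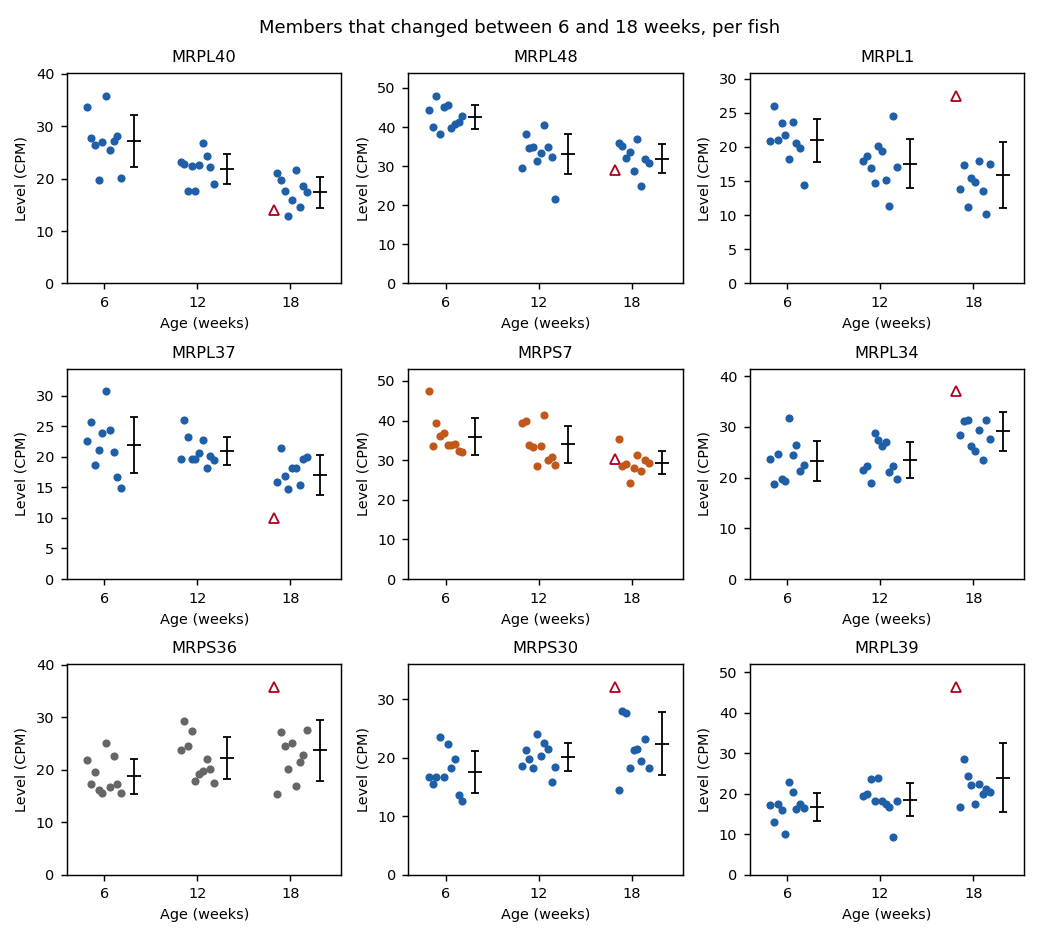
Level in CPM (vertical axis, from 0) by age in weeks (horizontal axis) of the 9 members that changed between 6 and 18 weeks; points are fish, bars are the mean and SD of 10 fish, blue marks the large subunit, orange the small subunit and grey MRPS36. The open triangle, 18-week fish 1, is the highest fish of its age for MRPL1, MRPL34, MRPS36, MRPS30 and MRPL39 and the lowest for MRPL37, and MRPS7 fell with TMM scaling but had a log2FC of 0.01 with library size alone.

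The 7 members called only in the fit without 18-week fish 1 were chosen after their values were seen. MRPS18A, a member of the S18 family that sits in the large subunit, had 1.13 CPM in that fish, against 5.68 to 12.4 CPM in the other old fish and 2.7 to 8.68 CPM in the young fish. Its log2FC was 0.64 (SE 0.198, FDR = 0.0121) without the fish and 0.51 (SE 0.242, FDR = 0.11) with it. MRPS18A is also a low locus, with a mean of 6.45 ± 2.50 CPM over all fish.

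MRPS15, the abundant small-subunit protein, showed the reverse. It had 75.4 CPM in 18-week fish 1, against 31.1 to 42.5 CPM in the other old fish and 34.0 to 50.8 CPM in the young fish, and its log2FC was -0.30 (FDR = 0.00727) without the fish and -0.15 (FDR = 0.341) with it. Library size alone gave 0.16 (FDR = 0.282), so the direction of MRPS15 depended on the scaling.

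The other 5 are MRPL11 of the stalk base that binds elongation factors, MRPL13, MRPL15 and MRPL17, all large-subunit proteins with bacterial counterparts, and MRPS31, a mitochondria-specific protein of the small subunit. Without the fish their log2FC were -0.26, -0.26, -0.35, -0.28 and -0.26, and in each case fish 1 was the highest of the old fish, at 31.3, 36.2, 33.0, 34.7 and 26.6 CPM. With library size alone, all 5 were between 0.01 and 0.15 and none passed the test. MRPL15 lay just outside the threshold with all fish (log2FC = -0.29, FDR = 0.0512).

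**Figure D4:**
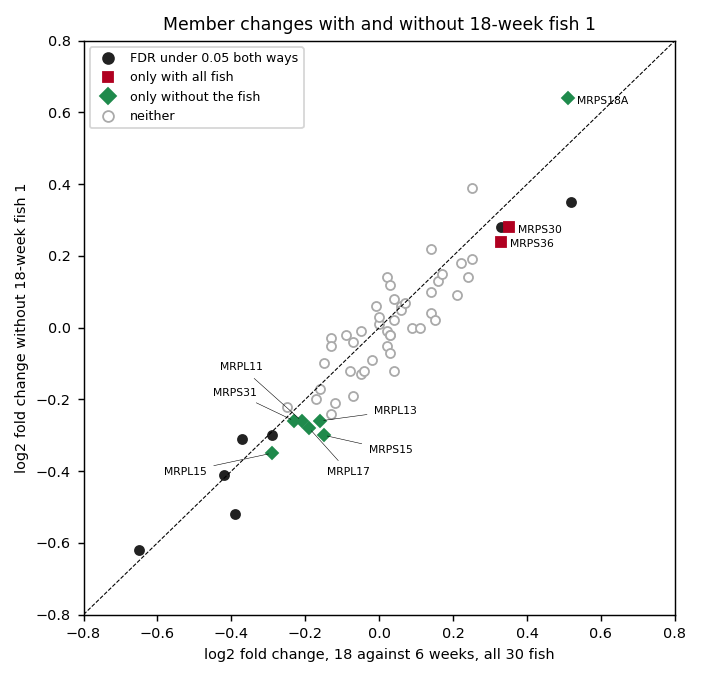
The log2FC at 18 against 6 weeks of the 61 tested members with all 30 fish (horizontal axis) and without 18-week fish 1 (vertical axis); symbols show in which fit a member had an FDR under 0.05, and the dashed line marks equal values. Calls made in 1 of the 2 fits are labelled, 2 of them only with all fish and 7 only without the fish.

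By the origin of the proteins, both kinds of large-subunit members held changed loci. Of 14 mitochondria-specific large-subunit members, 2 rose and 3 fell, and of 23 with bacterial counterparts 1 rose and 1 fell. In the small subunit, 1 of 14 members with a bacterial counterpart fell, and 0 of 9 mitochondria-specific members changed in edgeR's test. Large-subunit members changed in 18.9% of cases and small-subunit members in 4.35%, against the background of 29.2%. Within the large subunit the share was 35.7% for mitochondria-specific members and 8.7% for those with bacterial counterparts. Without 18-week fish 1 the shares were 29.7% for the large subunit and 13% for the small, against 30.4% of all loci, and 6 of the 23 large-subunit members with bacterial counterparts changed, 1 higher and 5 lower. These 6 made up 26.1%, beside 35.7% of the mitochondria-specific large-subunit members in that fit. With library size alone and all fish, 16 of 37 tested large-subunit members were higher and 1 lower. In the small subunit 14 of 23 were then higher and 0 lower, where 50.6% of all tested loci changed. The order of the subunits thus depended on the scaling. Whether the subunits or the kinds of member differ in the share of changed members was not tested.

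The intervals describe all 61 tested members, those called included, with TMM scaling and all 30 fish. They do not cover the choice of scaling, since library size alone moved the members' median log2FC from 0.02 to 0.31. The 95% interval of the log2FC at 18 against 6 weeks lay within 1 of zero for 60 of 61 members, and reached 1 for MRPS18A. It lay within 0.5 of zero for 48 members. The median SE of the members was 0.118, and the biological coefficient of variation had a median of 16.3% over the members.

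By 12 weeks 1 member had changed. MRPL48 had 21.7, 33.9 and 40.4 CPM in the lowest, median and highest fish at 12 weeks, against 38.3, 42.2 and 48.0 CPM at 6 weeks. Its log2FC was -0.36 (SE 0.0880, FDR = 0.0158), close to that at 18 against 6 weeks, which shares the 6-week fish. The call held in each of the 30 fits that left out a fish, and was lost with library size alone (log2FC = -0.24, FDR = 0.0969) and with a score of the RPE markers as a covariate (log2FC = -0.29, FDR = 0.117). Of all tested loci 2.2% changed in this comparison, 1.3% higher and 0.909% lower, and 0.501% passed both limits, with 0 members among them. In the fit without 18-week fish 1, 4.35% of all loci changed, and MRPL48 was again the 1 member. No member was higher in edgeR's or in DESeq2's test, and 2 members had an unadjusted p under 0.05 in edgeR.

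Between 12 and 18 weeks, 1 member rose and 1 fell, and both calls were lost in some of the fits that left out a fish. MRPL34 had 23.5, 28.8 and 37.0 CPM at 18 weeks, against 18.9, 22.2 and 28.8 CPM at 12 weeks (log2FC = 0.30, SE 0.100, FDR = 0.0386). MRPL40 had 12.8, 17.6 and 21.6 CPM at 18 weeks, against 17.7, 22.5 and 26.8 CPM at 12 weeks (log2FC = -0.33, SE 0.112, FDR = 0.0438). Of the 18-week-old fish, 5 lay above all 12-week-old fish for MRPL34 and 5 below all of them for MRPL40. Of all tested loci 5.19% were higher and 6.93% lower, and 1.02% passed both limits, with 0 members among them. Without 18-week fish 1 the FDR was 0.0611 for MRPL34 and 0.0694 for MRPL40. That fit called 0 members in edgeR's test, while 5.03% of all loci were higher and 6.96% lower. Over all fits that left out a fish the FDR reached 0.0676 for MRPL34 and 0.0875 for MRPL40, so that MRPL34 passed in 20 and MRPL40 in 17 of 30.

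RPE transcripts fell over the same ages, and an RPE score (the mean log2 CPM of the 12 tested RPE loci) was 4.27 ± 0.349 at 18 weeks and 5.39 ± 0.268 at 6 weeks. The paper's account of RPE left on young retinas applies to this score too, and its part was not tested. When this score entered the fit as a covariate, MRPL40 was the 1 member that still changed at 18 against 6 weeks (log2FC = -0.48, FDR = 0.036). The log2FC of MRPL48 was then -0.29 (FDR = 0.122) that of MRPL34 was 0.36 (FDR = 0.109) and that of MRPS7 was -0.05 (FDR = 0.817). Of all tested loci 11% changed in that fit. The score and age moved together, and their parts in these changes cannot be told apart.

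Further mitoribosomal proteins hide behind other names. At 12 loci the annotation gives an MRP name only in second place, among them mrpl4, mrpl14 and mrps6. With TMM scaling and all fish, 0 of these changed at 18 against 6 weeks in edgeR's test, against 29.2% of all tested loci. Without 18-week fish 1 ZGMRPL4, the locus of mrpl4, was lower (log2FC = -0.30, FDR = 0.0439), a gene chosen after its values were seen. Of 6 further subunits that carry no MRP name, such as DAP3, which binds GTP in the small subunit, and PTCD3, which is known to associate with it, 0 changed in either fit. With library size alone, 7 of the 12 loci and 4 of the 6 were higher and 0 lower, where 50.6% of all tested loci changed.

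The machinery that builds the mitoribosome changed at few loci with TMM scaling. Of 16 tested assembly genes 2 fell at 18 against 6 weeks (12.5%, against 29.2% of all tested loci). Without 18-week fish 1 NOA1, a GTPase of small-subunit assembly, was lower too (log2FC = -0.39, FDR = 0.0154, against -0.25 and 0.181 with all fish), and it was singled out after its values were seen. METTL15, which methylates the rRNA of the small subunit, had 0.412, 1.37 and 2.46 CPM at 18 weeks, against 1.67, 2.61 and 3.51 CPM at 6 weeks (log2FC = -0.79, FDR = 0.0154). ERAL1, a GTPase that chaperones the same rRNA, averaged 17.1 ± 5.39 CPM at 18 weeks and 25.9 ± 5.70 CPM at 6 weeks (SD, n = 10 each), with a log2FC of -0.61 (FDR = 0.00323). Of the old fish, 7 of 10 lay below every young fish for METTL15, a low transcript, and 6 of 10 for ERAL1. With library size alone their log2FC were -0.50 and -0.30 and neither passed (FDR 0.0926 and 0.0955). That scaling placed 4 of the 16 assembly genes higher and 0 lower, where 50.6% of all tested loci changed.

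Among 16 factors of mitochondrial translation, 1 rose and 2 fell at 18 against 6 weeks (18.8%, against 29.2% of all tested loci). TUFM, the elongation factor that brings aminoacyl-tRNA to the mitoribosome, had 40.7, 53.8 and 66.2 CPM at 18 weeks, against 54.3, 68.8 and 102 CPM at 6 weeks (log2FC = -0.45, FDR = 0.00102). LRPPRC, which stabilises mitochondrial mRNA, had 48.6, 59.2 and 129 CPM at 18 weeks, against 36.1, 44.0 and 55.1 CPM at 6 weeks (log2FC = 0.50, FDR = 0.00249), and it was 0.32 (FDR = 0.00289) without 18-week fish 1. For each of these genes 6 of 10 old fish lay outside the range of the young fish, below it for TUFM and above it for LRPPRC. MTRF1, a release factor, was lower (log2FC = -0.43, FDR = 0.0407), but its FDR was 0.0528 without 18-week fish 1 and up to 0.0952 without other fish. With library size alone, the FDR was 0.234 for TUFM and 0.55 for MTRF1. That scaling placed 6 of the 16 factors higher and 0 lower, where 50.6% of all tested loci changed.

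Of 16 genes that charge or modify mitochondrial tRNA, 1 was higher (6.25%, against 29.2% of all tested loci changed). PET112, the GatB subunit of the enzyme that makes glutaminyl-tRNA, had a log2FC of 0.33 (FDR = 0.0483), which was 0.26 (FDR = 0.103) without 18-week fish 1. When each fish was left out in turn, PET112 passed in 11 of 30 fits. Of 11 genes of mitochondrial DNA replication and transcription, 1 fell (9.09%). TFAM, which packages mitochondrial DNA and starts its transcription, had 32.5, 39.8 and 48.1 CPM at 18 weeks, against 37.2, 48.6 and 61 CPM at 6 weeks (log2FC = -0.28, FDR = 0.0165), and its log2FC was 0.02 (FDR = 0.878) with library size alone. That scaling placed 7 of the 16 tRNA genes and 4 of these 11 genes higher and 0 lower, where 50.6% of all tested loci changed.

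The regulators of mitochondrial biogenesis moved in both directions, with 2 of 9 higher and 2 lower (44.4%, against 29.2% of all tested loci). Without 18-week fish 1, 1 was higher and 2 lower (33.3%, against 30.4% of all loci). With library size alone 5 were higher and 1 lower, where 50.6% of all tested loci changed. PPARGC1B, a coactivator of respiratory genes, had 88.1, 156 and 190 CPM at 18 weeks, against 216, 242 and 258 CPM at 6 weeks. All old fish lay below all young fish, and the log2FC was -0.67 (SE 0.0881, FDR = 4.21e-07), or -0.37 (FDR = 0.00148) with library size alone. ESRRA, the nuclear receptor that PPARGC1 coactivators work with, was lower (log2FC = -0.43, FDR = 0.000603), though with library size alone its FDR was 0.24. PPARGC1A, the better known coactivator of the same family, was higher (log2FC = 0.34, FDR = 0.0247), but its FDR was 0.0666 without 18-week fish 1. MYCB, a Myc transcription factor, was higher at a low level (log2FC = 0.67, FDR = 0.038), with 2.48 to 7.08 CPM at 18 weeks and 0.952 to 5.38 CPM at 6 weeks, and its FDR was up to 0.0761 when a fish was left out.

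Of these 11 genes of mitochondrial gene expression and biogenesis, 8 did not pass at 18 against 6 weeks with the RPE score as a covariate. They were METTL15, ERAL1, TUFM, LRPPRC, PET112, TFAM, ESRRA and PPARGC1A, with FDR between 0.0744 and 0.637. PPARGC1B (log2FC = -0.68), MTRF1 (-0.70) and MYCB (1.27) still passed, with FDR of 0.00031, 0.0428 and 0.00897. The score lowered calls among all loci too, with 11% of all tested loci changed, against 29.2% without it.

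Beside the members, 2 related sets of genes were counted. Of 77 tested cytosolic ribosomal protein loci 3 rose and 2 fell (6.49%, median log2FC 0.03), against 29.2% of all tested loci. Without 18-week fish 1 the counts were 4 and 12 (20.8%, median -0.06), against 30.4% of all loci. With library size alone 57 were higher (median 0.34), where 6441 of all 13975 tested loci were higher (median 0.32). The 5 loci called with all fish were RPL19 (log2FC = -0.34), RPS15A (-0.30), RPS27.2 (0.25), RPS28 (0.34) and RPL5 (1 OF 2) at 0.42, named after their values were seen. RPL19 and RPS15A did not pass with library size alone (log2FC = -0.04 and 0.00).

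The nuclear subunits of oxidative phosphorylation are parts of the respiratory chain and of ATP synthase, as are the products of the mitoribosome. Of 63 tested loci 1 rose and 24 fell at 18 against 6 weeks (39.7%, median log2FC -0.22), against 29.2% of all tested loci. Without 18-week fish 1, 1 rose and 43 fell (69.8%, median -0.28), against 30.4% of all loci. Scaled by library size alone 8 were higher and 0 lower in edgeR's test, and the median was 0.09 where that of all loci was 0.32. The locus XLOC_016635 of NDUFA4, an accessory subunit of cytochrome c oxidase with 3 loci of that name, was singled out after its values were seen. It was the 1 that rose, with 215, 260 and 297 CPM in the lowest, median and highest fish at 18 weeks, against 153, 179 and 217 CPM at 6 weeks (log2FC = 0.52). ATP5O, a stalk subunit of ATP synthase singled out in the same way, had 165, 211 and 257 CPM at 18 weeks, against 227, 304 and 345 CPM at 6 weeks (log2FC = -0.47, FDR = 0.000873), though the log2FC was -0.17 (FDR = 0.159) with library size alone. The members, with 14.8% changed and a median of 0.02, did not show this lower median. Whether the lists differ was not tested.

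**Figure D5:**
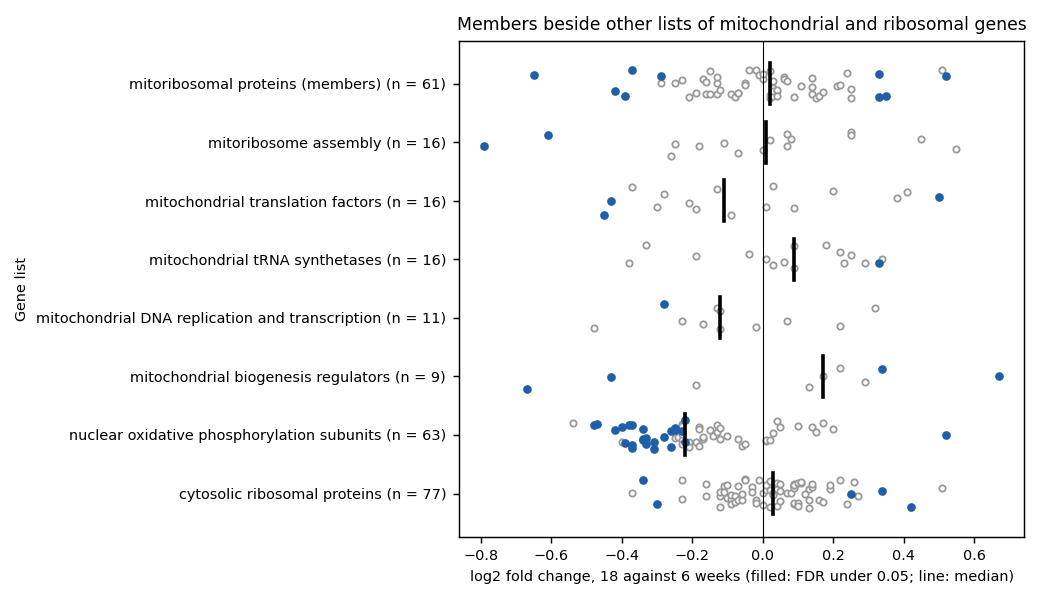
The log2FC at 18 against 6 weeks (horizontal axis, TMM scaling, all 30 fish) of tested loci in 8 gene lists (vertical axis); filled points have an FDR under 0.05, the thick line is the list's median, and points are spread vertically for sight. The members centre on 0.02 and the nuclear oxidative phosphorylation subunits on -0.22, medians that were 0.31 and 0.09 with library size alone, where all loci had 0.32.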

How the data were processed

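RNA of both neural retinas of 30 fish was sequenced with QuantSeq. The authors trimmed reads (Trim Galore 0.6.7, cutadapt 3.4), checked them (FastQC 0.11.9), aligned them with STAR 2.7.0 to a custom transcriptome on an assembly of the GRZ strain and deposited whole-number counts per locus from HTSeq 0.11.2. SAMtools 1.9.4 and edgeR 3.42.4 also stand in the submitters' processing notes. Per the labels each count file belongs to 1 fish, and no 2 files were identical. The annotation table deposited by the authors gave the gene names and, per locus, the percent of single cells with the transcript, a pooled value with no error.

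The 5 counting lines without a locus were left out. Reads on no feature were 18.0% to 27.7% and ambiguous reads 0.838% to 1.85%. Counts were fitted with edgeR 4.0.16 in R 4.3.3 (filterByExpr, TMM factors, a coefficient for each age, quasi-likelihood test), and FDR is the Benjamini-Hochberg adjusted p over all tested loci. A change was called at an FDR under 0.05. SE and 95% intervals are for log2FC, and log CPM values used a prior count of 2. Summed levels and lists were described without a test. Each fish is a separate animal. The labels name no pairing of fish across ages. Of 30 pairs with the same number in different ages, 1 deviated together with r over 0.1 (range -0.11 to 0.19). Such correlations cannot show whether fish of the same number shared a batch.

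Named members were the changed members with the largest rise or fall, the 3 most abundant of each subunit by name, those without overlap between 6 and 18 weeks, duplicated names and those below the filter. Of other lists up to 4 changed genes were named, and each gene named outside this rule is marked. The members and lists were chosen with earlier results of these data known. Alternatives were other scalings (library size alone, RLE, upper-quartile, TMM without loci over 1% of counts), DESeq2 1.42.0, no filter or at least 10 counts in at least 10 fish, only the 20 fish compared, robust dispersion, a replicate block, an RPE score and leaving out each fish. The script of the fit was tested on simulated counts. Proteins encoded by mitochondrial DNA were not analysed here.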

Additional observations from a re-analysis of the deposited data

Results flagged for a closer look

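Of 60 groups of 10 fish examined, 9 held a fish whose gap to its nearest neighbour, divided by the range of the group, exceeded Dixon's 95% critical value, where chance gives about 1 in 20 groups. In 7 of these the fish was 18-week fish 1. It was highest for MRPL39 (46.4 CPM, next 28.6), MRPL1 (27.5 CPM, next 18.0), MRPS15 (75.4 CPM, next 42.5) and MRPS12 (70.0 CPM, next 48.9), and lowest for MRPL28 (32.8 CPM, next 85.2). Its summed level was 1919 CPM over all members (next 1751) and 720 CPM over the small subunit (next 593). These values share 1 library and are not independent of each other. The same fish had the smallest share of reads on no feature and the largest share of ambiguous reads, and the part of these in its levels was not tested.

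In the remaining 2 groups, 12-week fish 9 was lowest for MRPL39 (9.25 CPM, next 16.8) and 6-week fish 1 was highest for MRPS7 (47.4 CPM, next 39.4). The fall of MRPS7 at 18 against 6 weeks was called in each of the 30 fits that left out a fish, but not with library size alone or with the RPE score as a covariate.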

How the results depend on the processing

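Scaling and the RPE score moved the results most. Of 28 calls named, library size alone ended 13, and it also ended 2 more whose log2FC changed sign, while the RPE score ended 23. With that score 11% of all tested loci changed at 18 against 6 weeks, against 29.2% without it. With library size alone, the median log2FC of all loci was 0.32 at 18 against 6, 0.13 at 12 against 6 and 0.19 at 18 against 12 weeks, and those of the members 0.31, 0.06 and 0.21. At 18 against 6 weeks 31 members were then higher and 1 lower (all loci 6441 and 637, against 1952 and 2124 with TMM), and the log2 ratio of the sum was 0.28. At 12 against 6 weeks 0 members were lower and the ratio was 0.07, and at 18 against 12 weeks 14 were higher, 0 lower and the ratio was 0.21. The log2FC of MRPS7 (0.01) and TFAM (0.02) at 18 against 6 weeks changed sign, and neither passed the test. Which scaling is nearer to RNA per cell was not tested.

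At 18 against 12 weeks, 0 members were lower with upper-quartile factors, without a filter or with only the 20 fish compared, and 0 were higher or lower with the replicate block (MRPL34 FDR = 0.0559, MRPL40 FDR = 0.0516). At 18 against 6 weeks, 2 were higher with only the 20 fish, and the replicate block gave 4 higher and 6 lower. The labels give no pairing for this block, and in 4 of 30 comparisons a fish correlated best with its own number. With the RPE score, 0 members were lower at 12 against 6 weeks, 0 higher and 1 lower at 18 against 6 weeks, and 0 higher and 0 lower at 18 against 12 weeks, and the cause was not tested. Of all tested loci 2.11%, 11% and 7.18% changed in these comparisons with the score.

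Without each fish in turn, 2 to 4 members were higher and 4 to 11 lower at 18 against 6 weeks, the most lower without 18-week fish 1, 0 to 1 higher and 0 to 1 lower at 18 against 12 weeks, and 0 higher and 1 lower at 12 against 6 weeks in each fit. The ratio of the sum lay between -0.05 and 0, 0.01 and 0.05, and -0.07 and -0.03 in these comparisons. The 2 members left untested were MRPS18B and the second MRPS35 locus, whose counts were too low for a test. The cause of their low counts was not tested.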

Other observations

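The annotation carries, for each locus, the authors' percentage of retinal single cells in which the transcript was seen, a value pooled over all ages from another method. Over the members it had a median of 12.0%. The highest were MRPL28 at 32.5% and MRPL24 at 30.6%, the same 2 loci that led in bulk CPM, and the lowest were the second MRPS35 locus at 0.179%, MRPS17 at 1.58% and MRPL53 at 3.18%. Across the 61 tested loci the percentage and the mean bulk CPM had a Spearman correlation of 0.57, or 0.55 over 60 without MRPL24. This is a description across genes that share libraries, and genes are not independent replicates. MRPS18B stood apart from this order, with 11.1% of cells and 1.44 CPM in bulk.

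By the neighbours in RefSeq's annotation, 1 pair of members lies side by side, MRPL46 of the large and MRPS11 of the small subunit. Their log2FC at 18 against 6 weeks were 0.25 and 0.04, and neither passed the test.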
